A study of Mus musculus with 16 samples.

Results

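Neural stem and progenitor cells lacking the acetyltransferase gene Kat7 were compared with intact cells while both grew as neurospheres, the floating cell clusters that neural stem and progenitor cells form in culture. The comparison uses the 8 libraries labelled as proliferating, 4 null and 4 intact, of the 16 libraries in the series, and covers all genes. The other 8 libraries, of the same genotypes after differentiation, served only to estimate the spread and for the side-by-side account at the end. Null cells had the genotype Kat7 lox/lox; NesCre T/+ and intact cells the genotype Kat7+/+; NesCre T/+, so that both groups carried Cre recombinase driven by Nestin sequences and differed by the floxed allele. Nestin is a gene of neural progenitors, and Cre under its control deletes a floxed gene in the neural lineage. Cells came from the forebrain of E14.5 (embryonic day) mouse foetuses (cortex and ganglionic eminences), with 4 foetuses per genotype, and were collected after 3 passages and 3 days of proliferation. Polyadenylated RNA was sequenced as paired-end reads of 75 bases. The labels do not say which library came from which foetus, so the p-values measure the spread between these libraries.

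KAT7, also called HBO1, adds acetyl groups to lysines of histone tails. It works as the catalytic subunit of a complex with an ING protein, MEAF6 and a scaffold: with a BRPF scaffold it acts mainly on histone H3, and with a JADE scaffold on histone H4. The name HBO1 comes from its binding to ORC1, a subunit of the complex that marks replication origins. The cells studied here divide to renew themselves and can give rise to neurons, astrocytes and oligodendrocytes. RNA levels are given as CPM (counts per M counts of a library's total) after scaling by the trimmed mean of M values (TMM), always in the order of replicates 1 to 4. Of paired values joined by "against" the null libraries come first, and of a change written "from" and "to" the intact libraries come first. A fold change is the log2 of null over intact with its standard error (SE), from edgeR's quasi-likelihood fit. A gene is said to have risen or fallen where the Benjamini-Hochberg adjusted p over all tested genes was under 0.05.

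The 8 libraries held 16.8 to 37.1 M counts each and detected 16322 to 17421 genes. Genotype separated the 8 libraries along the first principal component, which held 65.5% of the variance. Intact replicate 1 stood apart on the second component (15.4% of the variance) at -63.5, against 21.0 to 28.4 for intact replicates 2 to 4. A scale was set with the mean of intact proliferating replicates 2 to 4 at 0 and that of intact differentiating replicates 2 to 4 at the far end. On it, intact replicate 1 lay 34.4% of the way to differentiation and the null libraries between -3.19 and 2.46%. Intact replicates 2 to 4 lie around 0 by construction. Null replicate 4 was at -20.3 on the second component and the other null libraries at 3.22 to 4.36. Replicates 2 and 3 were close to each other within both genotypes: their median squared difference per gene was 1.37 times counting noise for intact and 2.07 times for null, against 2.63 to 19.8 for all other pairs of a group. They were above sampling noise and were kept as separate samples, but counts are also given with each such pair summed to 1 library. The labels give no reason for this closeness. Of 10 defining markers of neural stem and progenitor cells all 10 passed the count filter, and their summed level was 7020 to 7516 CPM in null and 6833 to 7483 CPM in intact libraries. Microglial markers summed to 0.217 to 0.875 CPM in all 8 libraries, with 5 of 12 at 0 throughout, endothelial markers to 3.21 to 6.93 CPM and meningeal markers to 5.62 to 12.7 CPM. Choroid plexus and ependymal markers summed to 27.7 to 43.7 CPM in null and 16.4 to 21.0 CPM in intact libraries, without overlap, and 3 of 8 tested rose and 1 fell. Schwann and neural crest markers summed to 16.2 to 20 CPM in null and 13.8 to 24.5 CPM in intact libraries, and 3 of 6 tested rose and 0 fell (1 and 0 with the close pairs summed). The part of these cell types in the glial results below was not tested.

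**Figure D1:**
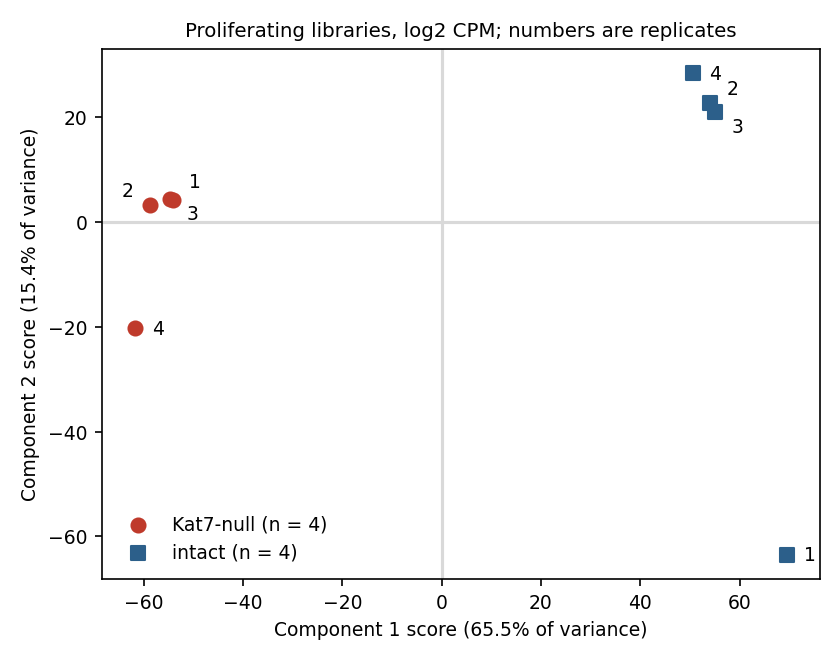
The 8 proliferating libraries on the first and second principal components of log2 CPM over all tested genes, with the share of variance on each axis. The 4 null libraries lie on the left (-61.8 to -54.2) and the 4 intact libraries on the right (50.6 to 69.6), and intact replicate 1 lies apart from the other intact libraries along the vertical axis.

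Of 15177 genes tested, 2879 were higher in null cells (19%) and 2985 were lower (19.7%), together 38.6%. Changes of more than 2-fold were called for 784 genes upward (5.17%) and 1263 downward (8.32%) with all libraries. Without intact replicate 1 these numbers were 1020 and 1097, and with the proliferating libraries alone and without it 928 and 950, so most of that difference between directions rests on intact replicate 1. All 4 null libraries lay above all 4 intact ones for 19.2% of genes and below them for 19.7%. Without intact replicate 1, 3186 genes were higher (20.6%) and 3068 lower (19.8%) of 15503 tested, and 2603 and 2635 of these were called in the same direction with it, 0 in the opposite direction. With replicates 2 and 3 summed in each genotype, 2191 were higher and 2302 lower. Scaling by library size instead of TMM shifted the median gene from -0.01 to -0.09 log2 and the share of lower calls from 50.9 to 63.3%, so small changes depend on the scaling. Increases were more common among strongly expressed genes, from 13.1% in the lowest of 4 classes of mean level to 24.4% in the highest, while decreases made up 21.8% of the lowest and 14.6% of the highest class. The counts of each gene list below are to be read against the shares 19% higher and 19.7% lower over all genes. In these bulk samples, fewer cells of a type and less RNA per cell cannot be told apart. For each list below with 0 members called by edgeR in a direction, DESeq2 and an unadjusted p under 0.05 also gave 0 in that direction.

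**Figure D2:**
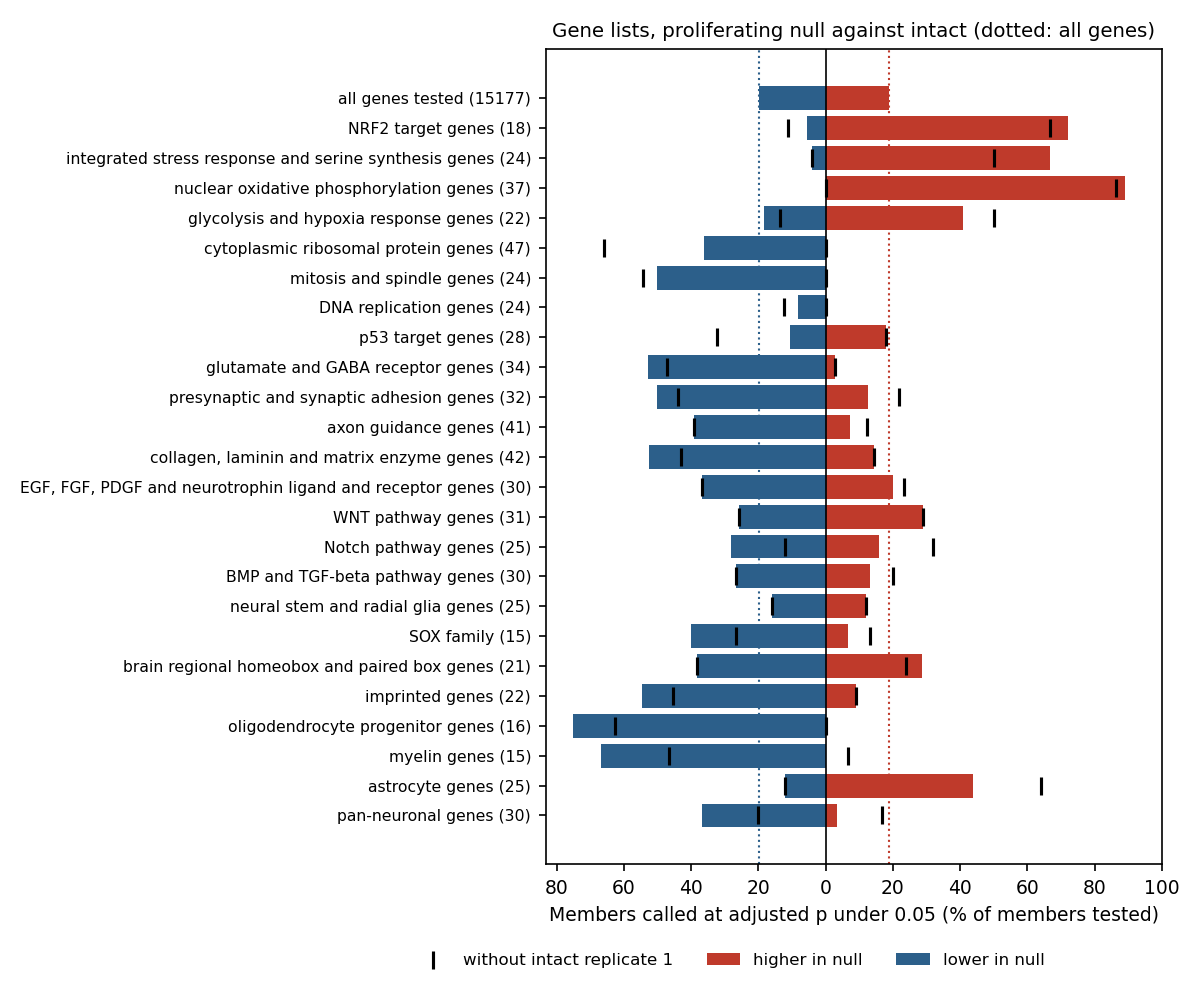
Share of tested members called higher (right) and lower (left) in proliferating null cells for 24 gene lists, with the number tested in brackets. Dotted lines mark the shares over all genes (19 and 19.7%) and black ticks the shares without intact replicate 1; oxidative phosphorylation, NRF2 and integrated stress genes extend furthest to the right and oligodendrocyte progenitor and myelin genes furthest to the left.

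Kat7 itself (Entrez 217127; chromosome 11, 95271853 to 95310246 in GRCm38, the assembly that mm10 names) was nearly absent from the null libraries. It had 2, 2, 4 and 0 counts in the null libraries and 2714, 2671, 3036 and 3144 in the intact ones. The null level was 0.0551% of the intact level (95% exact interval 0.0238 to 0.109%, which covers counting error only). The log2 fold change was -10.73 ± 0.25 (SE, n = 4 per group, edgeR adjusted p = 4.7e-13). Within 5 Mb of Kat7, 24 of 103 tested genes were higher and 23 lower.

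Among the 9 other subunits of KAT7 complexes, 2 rose and 1 fell. The JADE scaffold gene Jade2 was at 18.9, 14.7, 14.6 and 19.9 CPM in null and 2.08, 3.41, 3.13 and 2.88 CPM in intact libraries. All 4 null libraries lay above all 4 intact ones, with a log2 fold change of 2.57 ± 0.23 (edgeR adjusted p = 1.3e-06). Its relative Jade3 rose less, by 0.48 ± 0.15 (edgeR adjusted p = 0.017), a call that was lost without null replicate 2 (adjusted p = 0.0556) and with the close pairs summed (adjusted p = 0.0691). Ing4, which encodes a subunit that reads methylated histone H3, fell by 0.38 ± 0.11 (edgeR adjusted p = 0.0106), and intact replicate 1 was its highest library at 64.5 CPM against 42.9 to 46.3 CPM. The 6 remaining subunits, the BRPF scaffolds among them, did not pass the test. Of 10 other lysine acetyltransferases, Kat5 fell by 0.21 ± 0.06 (edgeR adjusted p = 0.00947), and Kat2b was called higher at 0.30 ± 0.11 (edgeR adjusted p = 0.0378). The Kat2b call was lost when any single library but null replicate 4 was left out (adjusted p = 0.0526 to 0.09).

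Most genes of the oxidative stress response rose. NRF2 is a transcription factor that is degraded in unstressed cells and, when stabilised, binds antioxidant response elements and turns on genes for glutathione synthesis, thioredoxin repair, NADPH production and iron storage. Of 18 listed NRF2 targets tested, 13 rose and 1 fell, with a median of 0.81 against -0.01 over all genes. Without intact replicate 1 the counts were 12 and 2, and with the close pairs summed 12 and 1. Srxn1 (Entrez 76650; chromosome 2, 152105524 to 152111376) encodes sulfiredoxin, which restores oxidised peroxiredoxins. It was at 91.4, 66.4, 62.5 and 89.8 CPM in null and 15.9, 10.8, 11.1 and 12 CPM in intact libraries. All null libraries were well above all intact ones, and the log2 fold change was 2.64 ± 0.20 (edgeR adjusted p = 2.9e-07).

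Both subunits of the enzyme that makes the first committed step of glutathione synthesis moved by a similar amount. The catalytic subunit gene Gclc was at 188, 173, 171 and 148 CPM in null and 78.9, 84.1, 89.2 and 93.8 CPM in intact libraries, a log2 fold change of 0.98 ± 0.09 (edgeR adjusted p = 1.5e-06). The modifier subunit gene Gclm was at 89.7, 73.1, 76.1 and 73.1 CPM against 37.6, 38.9, 41.7 and 39.3 CPM, a log2 fold change of 0.99 ± 0.09 (edgeR adjusted p = 2.2e-06). For neither gene did the groups overlap. Me1, which makes NADPH from malate in the cytosol, rose by 1.64 ± 0.15 (edgeR adjusted p = 1.9e-06), and the pentose phosphate enzyme gene Taldo1 rose by 0.53 ± 0.10 (edgeR adjusted p = 0.00064). The haem-degrading enzyme gene Hmox1 rose by 1.82 ± 0.22 (edgeR adjusted p = 1.7e-05). Iron storage was represented by Fth1, the ferritin heavy chain, at 961, 836, 850 and 1415 CPM in null and 389, 482, 461 and 452 CPM in intact libraries (log2 fold change 1.19 ± 0.15, edgeR adjusted p = 3e-05). Null replicate 4 was its highest library. Not all members moved: Nqo1, a quinone reductase often used to read NRF2 activity, was at 15.2, 9.31, 11.7 and 13.2 CPM against 8.29, 11.9, 11.9 and 11.6 CPM (0.18 ± 0.23, edgeR adjusted p = 0.572), and Abcc1, an efflux pump for glutathione conjugates, fell by 0.82 ± 0.13 (edgeR adjusted p = 0.00024).

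Amino acid genes of the integrated stress response were also raised. In this response, phosphorylation of a translation initiation factor slows protein synthesis overall while ATF4 protein is made and switches on genes for amino acid uptake and synthesis. Of 24 listed genes, 16 rose and 1 fell, with a median of 0.66. The counts were 12 and 1 without intact replicate 1 and 10 and 1 with the close pairs summed. The member with the largest increase was Slc7a11 (Entrez 26570; chromosome 3, 50364936 to 50499087), the cystine importer that supplies cysteine for glutathione and is also an NRF2 target. It was at 297, 157, 158 and 200 CPM in null and 18.8, 17.7, 18.1 and 20.9 CPM in intact libraries. The 4 intact libraries lay close together and every null library was far above them, with a log2 fold change of 3.42 ± 0.24 (edgeR adjusted p = 1.4e-07). Its partner chain gene Slc3a2 rose by 0.97 ± 0.14 (edgeR adjusted p = 7.7e-05), and Slc7a5, the leucine importer that pairs with the same chain, rose by 1.16 ± 0.15 (edgeR adjusted p = 3.2e-05).

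Mitochondrial enzymes of the same list rose as well. Pck2, which makes phosphoenolpyruvate in mitochondria, was at 130, 96.6, 96.5 and 110 CPM in null and 30.9, 37.8, 36.4 and 44.0 CPM in intact libraries, with no overlap and a log2 fold change of 1.54 ± 0.15 (edgeR adjusted p = 2.5e-06). Aldh1l2, a folate enzyme, rose by 1.52 ± 0.20 (edgeR adjusted p = 3.1e-05). Atf4 RNA itself was at 435, 315, 317 and 258 CPM against 216, 251, 255 and 266 CPM, and these ranges overlapped. Its log2 fold change was 0.42 ± 0.15 (edgeR adjusted p = 0.04). The call was lost when any single library but null replicate 4 was left out (adjusted p = 0.051 to 0.151). It was also lost with library-size scaling (adjusted p = 0.0641) and with the close pairs summed (adjusted p = 0.0894). The asparagine synthetase gene Asns, a widely used readout of this response, gave 172, 103, 106 and 82.6 CPM in null and 89.0, 119, 111 and 134 CPM in intact libraries (0.03 ± 0.27, edgeR adjusted p = 0.944). The member that fell was Ddit4, an inhibitor of mTORC1 signalling, at -0.59 ± 0.11 (edgeR adjusted p = 0.00052). Of 16 unfolded protein response genes 4 rose and 2 fell, and of 14 heat shock genes 4 rose and 1 fell. The unfolded protein counts were 4 and 1 without each of null replicates 1 to 3 and intact replicates 2 and 3, and the heat shock counts 4 and 2 without intact replicate 1 or null replicate 4.

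Promoter letters are shown for 4 called genes of these lists. All 4 promoters were picked for a match to the core of an element that NRF2 or ATF4 can bind. Each is the RefSeq sequence (GRCm38.p6) from 250 bases before to 50 bases after the gene's start, read 5′ to 3′ on the gene's strand, with matches in capitals. The antioxidant response element core was searched as TGACNNNGC and the C/EBP-ATF element core as TGATGNAA, on both strands.

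Slc7a11: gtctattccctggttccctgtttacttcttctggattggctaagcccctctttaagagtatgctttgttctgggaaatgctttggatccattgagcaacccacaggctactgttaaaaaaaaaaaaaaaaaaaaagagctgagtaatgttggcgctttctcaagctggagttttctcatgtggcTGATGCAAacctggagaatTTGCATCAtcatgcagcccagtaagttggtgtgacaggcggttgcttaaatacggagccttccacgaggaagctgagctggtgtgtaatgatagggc

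Pck2: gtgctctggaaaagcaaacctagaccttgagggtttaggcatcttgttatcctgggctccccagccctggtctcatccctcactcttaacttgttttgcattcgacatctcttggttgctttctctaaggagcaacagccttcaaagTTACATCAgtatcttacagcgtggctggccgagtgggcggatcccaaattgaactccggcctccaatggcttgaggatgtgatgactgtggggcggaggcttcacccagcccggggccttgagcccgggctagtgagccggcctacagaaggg

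Srxn1: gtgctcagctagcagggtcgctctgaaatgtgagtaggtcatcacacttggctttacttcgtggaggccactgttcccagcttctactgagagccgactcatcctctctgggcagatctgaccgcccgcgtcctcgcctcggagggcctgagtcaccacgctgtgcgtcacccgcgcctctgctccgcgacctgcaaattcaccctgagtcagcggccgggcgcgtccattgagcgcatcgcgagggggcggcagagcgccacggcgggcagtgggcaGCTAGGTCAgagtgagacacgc

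Me1: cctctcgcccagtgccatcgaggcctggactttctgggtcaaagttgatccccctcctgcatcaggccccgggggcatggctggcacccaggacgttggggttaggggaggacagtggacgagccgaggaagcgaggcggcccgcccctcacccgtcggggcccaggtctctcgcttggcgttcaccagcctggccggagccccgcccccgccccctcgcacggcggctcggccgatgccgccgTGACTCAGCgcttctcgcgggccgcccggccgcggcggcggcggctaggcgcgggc

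The Slc7a11 window (chr3:50443564-50443863, minus strand) holds TGATGCAA 66 bases before the start and, 47 bases before it, the same element on the opposite strand. The Pck2 window (chr14:55540016-55540315, plus strand) holds a match on the opposite strand 103 bases before the start. In Srxn1 (chr2:152105274-152105573, plus strand) the antioxidant core lies on the opposite strand 29 bases after the start, and in Me1 (chr9:86695865-86696164, minus strand, 1 of 2 starts) it lies 6 bases before the start. The C/EBP-ATF core occurs in 3.97% of 32851 promoters and 4.51% of genes in the table, and in 6 of 22 listed stress response genes found there, 3 of them among the 15 called. The antioxidant core occurs in 12.4% of promoters and 14% of genes, and in 6 of 13 listed NRF2 targets, 4 of them among the 9 called. Listed genes with and without a call thus both hold these letters, and the 4 shown were picked for a match. A match describes letters and not binding.

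Genes for the respiratory chain rose almost as a whole, though each by little. Oxidative phosphorylation in the inner mitochondrial membrane passes electrons through complexes I to IV and makes ATP with ATP synthase. Of 37 nuclear genes for these complexes, 33 rose and 0 fell, with a median of 0.43 and a range of 0.13 to 0.77. The counts were 32 and 0 without intact replicate 1 and 33 and 0 with the close pairs summed. Cox5a (Entrez 12858; chromosome 9, 57517328 to 57532427), a subunit of complex IV, was at 336, 282, 315 and 373 CPM in null and 171, 198, 194 and 205 CPM in intact libraries. No null library fell into the intact range, and the log2 fold change was 0.77 ± 0.09 (edgeR adjusted p = 9.8e-06). Atp5o of ATP synthase rose by 0.61 ± 0.06 (edgeR adjusted p = 3.2e-06), Sdhb of complex II by 0.55 ± 0.06 (edgeR adjusted p = 9.9e-06), Uqcrc2 of complex III by 0.51 ± 0.06 (edgeR adjusted p = 1.5e-05) and Ndufa5 of complex I by 0.68 ± 0.08 (edgeR adjusted p = 1.6e-05), so every complex was represented. The catalytic ATP synthase gene Atp5b went from 1895, 2192, 2193 and 2223 CPM in intact to 2731, 2637, 2593 and 2966 CPM in null libraries (0.36 ± 0.07, edgeR adjusted p = 0.00138). Intact replicate 1 was its lowest intact library. The mean log2 CPM over the list was 7.63 to 7.94 in null libraries, 7.32 to 7.37 in intact replicates 2 to 4 and 7.21 in intact replicate 1. Of 15 genes on the mitochondrial genome, 4 rose and 0 fell.

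Glycolysis and hypoxia response genes were more mixed: of 22 tested, 9 rose and 4 fell, with a median of 0.31, and 11 and 3 did so without intact replicate 1. Members ranged from -4.30 to 1.67, so the largest change in size was a decrease. The called members named here are all among those that rose. Aldoa, the muscle-type aldolase, was at 933, 873, 855 and 920 CPM in null and 538, 543, 537 and 559 CPM in intact libraries. Both groups were tight and well separated, with a log2 fold change of 0.72 ± 0.08 (edgeR adjusted p = 5.3e-06). Pkm, which makes pyruvate, rose by 0.70 ± 0.09 (edgeR adjusted p = 2.9e-05), the isomerase gene Gpi1 by 0.68 ± 0.09 (edgeR adjusted p = 2.8e-05) and Pfkfb3, whose product activates phosphofructokinase, by 1.34 ± 0.20 (edgeR adjusted p = 9.7e-05). Ldha, the lactate dehydrogenase subunit, was at 642, 653, 632 and 697 CPM against 485, 585, 569 and 609 CPM and missed the threshold (0.22 ± 0.11, edgeR adjusted p = 0.107). It passed in a fit of the 8 proliferating libraries alone (adjusted p = 0.0472). Adm, the hypoxia-responsive gene for the peptide adrenomedullin, rose by 1.67 ± 0.27 (edgeR adjusted p = 0.00023). Genes such as these with many processed pseudogenes can lose or gain reads in counting, which was not tested.

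Cytoplasmic ribosomal protein genes leaned the other way, by small amounts. Of 47 tested, 17 fell and 0 rose, with a median of -0.26 and a range of -0.54 to -0.02. Rpl5 (Entrez 100503670; chromosome 5, 107900508 to 107909005) encodes a large-subunit protein that also binds MDM2. It was at 102, 92.1, 90.7 and 110 CPM in null and 114, 145, 136 and 180 CPM in intact libraries. The groups did not overlap, but intact replicate 1 lay close to the null range and the log2 fold change was -0.54 ± 0.11 (edgeR adjusted p = 0.00137). Rpl22, another large-subunit protein gene, fell by 0.36 ± 0.07 (edgeR adjusted p = 0.00109). The number of lower calls was sensitive to the libraries: 31 without intact replicate 1, 31 with library-size scaling, 9 without intact replicate 4, 11 without each of null replicates 2 and 3 and intact replicates 2 and 3, and 7 with the close pairs summed, with 0 rising in each. With the close pairs summed and without intact replicate 4, the share of lower calls was near that of all genes. Over all genes these fits called 2302 of 15649 and 2692 of 15539 lower. All 4 null libraries lay below all 4 intact ones for 7 of the 47 members, a share under the 19.7% of all genes. The mean log2 CPM of the list was 6.81 to 7.03 in null libraries, 7.17 to 7.41 in intact replicates 2 to 4 and 6.94 in intact replicate 1. Ribosomal protein genes also have many processed pseudogenes, and their effect on these counts was not tested.

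**Figure D3:**
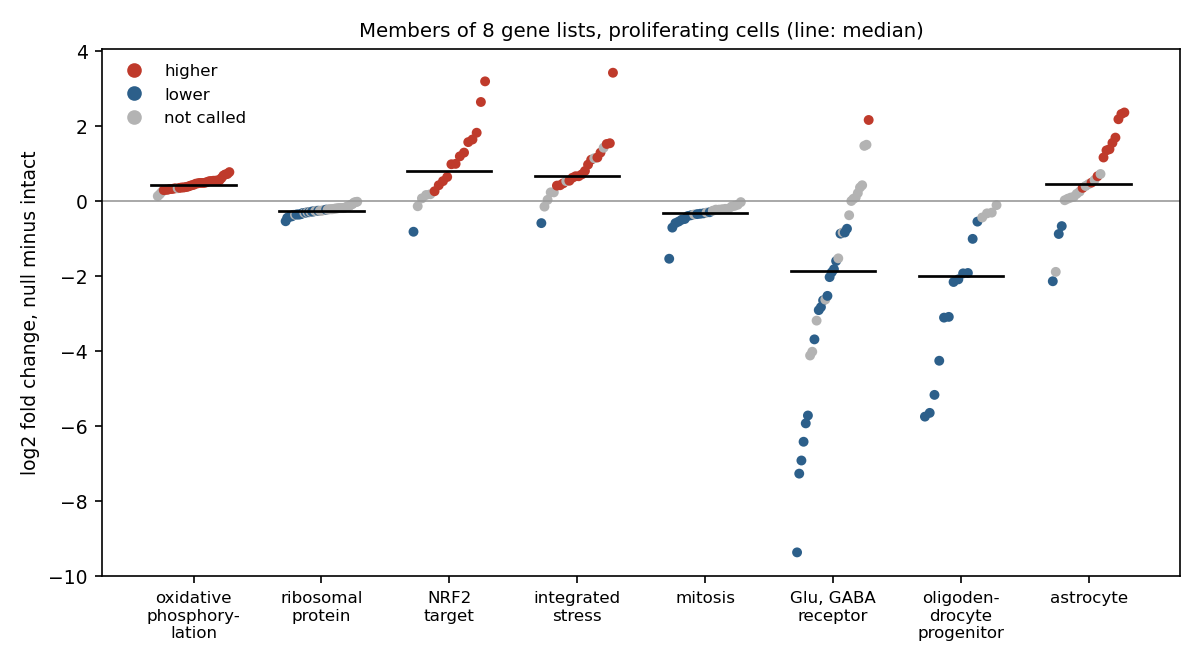
Log2 fold change (null minus intact) of every tested member of 8 gene lists in proliferating cells, ordered within each list, with the median as a line. Oxidative phosphorylation members lie between 0.13 and 0.77, ribosomal protein members between -0.54 and -0.02, and glutamate and GABA receptor members reach down to -9.37.

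Cell division genes were slightly lower in the growing null cells. Mitosis and spindle genes are switched on late in the cell cycle, in many cases through a CCAAT box and a cell cycle homology region (CHR) in their promoters. Of 24 such genes, 12 fell and 0 rose, with a median of -0.32. The counts were 13 and 0 without intact replicate 1, 10 and 0 with the close pairs summed and 17 and 0 with library-size scaling. Ccnb2 (Entrez 12442; chromosome 9, 70407689 to 70421554), a mitotic cyclin, stood out in size. It was at 23.8, 29.8, 31.1 and 26.3 CPM in null and 84.8, 81.6, 86.7 and 68.8 CPM in intact libraries. Every null library was below every intact one by more than 2-fold, and the log2 fold change was -1.54 ± 0.17 (edgeR adjusted p = 8.9e-06).

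The remaining mitotic decreases were small. The Aurora kinase gene Aurkb was at 77.7, 89.8, 85.1 and 61.0 CPM in null and 109, 133, 135 and 136 CPM in intact libraries (-0.71 ± 0.13, edgeR adjusted p = 0.00079). Bub1b, a spindle checkpoint kinase, was at 127, 143, 144 and 128 CPM against 176, 195, 197 and 200 CPM (-0.50 ± 0.11, edgeR adjusted p = 0.00185). The groups overlapped for neither gene. Nusap1, which binds spindle microtubules, fell by 0.55 ± 0.11 (edgeR adjusted p = 0.00129) and the kinesin gene Kif20a by 0.48 ± 0.10 (edgeR adjusted p = 0.00135). Mki67, the Ki-67 proliferation antigen, was at 603, 393, 392 and 470 CPM in null and 578, 555, 562 and 696 CPM in intact libraries. Its groups overlapped through null replicate 1, and it was not called (-0.36 ± 0.16, edgeR adjusted p = 0.0871). It was called lower without that library (-0.51, adjusted p = 0.0196) and with library-size scaling (-0.44, adjusted p = 0.0311).

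Promoters are shown for Ccnb2, with the largest mitotic decrease, and Bub1b. Both were picked as called genes whose promoter holds both motifs, so they do not show how mitotic promoters are laid out in general. The CCAAT box was searched as CCAAT and the CHR core as TTTGAA on both strands, with matches in capitals.

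Ccnb2: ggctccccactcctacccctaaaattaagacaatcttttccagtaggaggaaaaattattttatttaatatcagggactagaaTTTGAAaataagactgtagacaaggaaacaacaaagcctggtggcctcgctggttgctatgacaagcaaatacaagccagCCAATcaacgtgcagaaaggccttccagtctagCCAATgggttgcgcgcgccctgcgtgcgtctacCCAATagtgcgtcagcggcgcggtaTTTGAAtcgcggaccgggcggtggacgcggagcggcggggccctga

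Bub1b: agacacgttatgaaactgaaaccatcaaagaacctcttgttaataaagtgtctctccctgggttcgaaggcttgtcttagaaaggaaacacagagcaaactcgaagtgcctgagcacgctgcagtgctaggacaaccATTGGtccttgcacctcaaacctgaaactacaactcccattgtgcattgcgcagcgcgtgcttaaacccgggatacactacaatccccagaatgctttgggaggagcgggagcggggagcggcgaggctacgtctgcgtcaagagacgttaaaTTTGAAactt

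The Ccnb2 window (chr9:70421505-70421804, minus strand) holds CCAAT 87, 54 and 21 bases before the start and TTTGAA 167 bases before and 5 bases after it. The Bub1b window (chr2:118597961-118598260, plus strand) holds CCAAT on the opposite strand 113 bases before the start and TTTGAA 41 bases after it. CCAAT occurs in 37.4% of all 32851 promoters and 41.1% of genes, and in 16 of 19 mitosis genes in the table, 6 of them among the 8 called. TTTGAA occurs in 17.9% of promoters and 20.2% of genes, and in 13 of 19 mitosis genes, 5 of them among the 8 called. Mitosis genes with and without a call thus both hold these letters.

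Few genes for DNA synthesis passed the test. Of 24 DNA replication genes, 2 fell and 0 rose, with a median of -0.05, and 3 fell without intact replicate 1. Both that fell encode subunits of the origin recognition complex. Orc1, which encodes the subunit that KAT7 binds, was not called with all libraries, nor were Orc2, Orc4 and Orc6. The 8.33% of listed genes that fell is below the 19.7% over all genes. Orc3 was at 45.5, 45.8, 43.9 and 47.4 CPM in null and 58.7, 59.2, 56.5 and 55.0 CPM in intact libraries (-0.33 ± 0.06, edgeR adjusted p = 0.00059). Orc5 was at 37.8, 40, 42.1 and 43.2 CPM against 48.6, 51.6, 51.8 and 47.5 CPM (-0.29 ± 0.06, edgeR adjusted p = 0.00137). The groups were separate for both, by small and even differences. Of 24 genes that control the G1 phase, 3 rose and 4 fell. The counts were 3 and 2 without null replicate 1, 4 and 2 without null replicate 4, and 2 and 2 without each of intact replicates 2, 3 and 4 and with the close pairs summed. The CDK inhibitor gene Cdkn1c, which is imprinted, fell from 38.5, 23.9, 21.7 and 13.0 CPM to 6.0, 6.47, 7.20 and 3.66 CPM (-2.07 ± 0.35, edgeR adjusted p = 0.00029). Cdk6, a G1 kinase, rose by 1.03 ± 0.21 (edgeR adjusted p = 0.00142), and the cell cycle brake Rb1 rose by 0.29 ± 0.06 (edgeR adjusted p = 0.00088).

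Targets of p53 did not move together: of 28, 5 rose and 3 fell, with a median of 0.00. Without intact replicate 1 the counts were 5 and 9. The mean log2 CPM of the list was 5.21 in that library, 5.88 to 5.91 in the other intact and 5.66 to 6.04 in the null libraries. Cdkn1a, the main p53-induced CDK inhibitor, was at 355, 283, 298 and 526 CPM in null and 152, 430, 446 and 509 CPM in intact libraries, fully overlapping (-0.07 ± 0.29, edgeR adjusted p = 0.874). Eda2r was at 132, 128, 135 and 171 CPM against 84.5, 184, 185 and 205 CPM (-0.21 ± 0.23, edgeR adjusted p = 0.48) and was called lower without intact replicate 1 (-0.43, adjusted p = 0.0423). Ddit4l, a stress-induced inhibitor of mTORC1 signalling, rose most in the list. It was at 271, 311, 318 and 333 CPM in null and 41.9, 63.3, 63.1 and 58.5 CPM in intact libraries (2.44 ± 0.15, edgeR adjusted p = 3.6e-08). Perp fell by 3.71 ± 0.59 (edgeR adjusted p = 0.00016) from at most 2.21 CPM, and Sesn1, a stress-induced inhibitor of mTORC1 signalling, fell by 0.64 ± 0.10 (edgeR adjusted p = 0.00017). Of 19 BCL2 family and caspase genes, 5 rose and 2 fell. The counts were 3 and 3 without intact replicate 1, 3 and 2 without null replicate 4, and 2 and 2 without each of null replicates 1 and 3 and intact replicates 2 and 3.

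Many genes for neuronal signalling, most of them at low levels in these progenitors, were strongly decreased. Glutamate and GABA receptors pass the brain's main excitatory and inhibitory signals, and some act in progenitors before synapses form. Of 34 receptor genes tested, 18 fell and 1 rose, with a median of -1.86. The counts were 16 and 1 both without intact replicate 1 and with the close pairs summed. Gabra3 (Entrez 14396; chromosome X, 72432676 to 72656919), a GABA-A receptor subunit, had 0 counts in all 4 null libraries and 5.33, 2.44, 1.84 and 2.16 CPM in the intact ones. Against a floor of 3 counts over the null group it was at least 102-fold lower (edgeR adjusted p = 0.00012). Another such subunit, Gabra2, was at 0.105, 0.123, 0.374 and 0.369 CPM in null and 4.51, 16.6, 16 and 17.3 CPM in intact libraries. The groups were separate, with intact replicate 1 lowest among the intact (-5.72 ± 0.76, edgeR adjusted p = 3.8e-05).

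Kainate receptor genes fell by very different amounts. Grik1 had 2 counts over the null libraries, 0.656% of the intact level (95% interval 0.0790 to 2.40%, counting error only). Grik2 was at 12, 15.1, 14.6 and 12.4 CPM in null and 26.3, 24.1, 22.6 and 23.2 CPM in intact libraries (-0.84 ± 0.09, edgeR adjusted p = 4.2e-06). Its decrease was small but steady over the libraries, with no overlap. The metabotropic genes moved in both directions: Grm3 fell by 1.90 ± 0.28 (edgeR adjusted p = 8.6e-05), and Grm4 was the receptor that rose, from 1.26, 0.920, 0.967 and 0.945 CPM to 4.88, 4.07, 2.83 and 6.55 CPM (2.16 ± 0.34, edgeR adjusted p = 0.00016). The GABA-B receptor subunit gene Gabbr2 fell by 2.03 ± 0.25 (edgeR adjusted p = 2.4e-05).

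Synaptic adhesion and release genes gave a similar picture. Of 32 tested, 16 fell and 4 rose, with a median of -0.58, and 14 and 7 did so without intact replicate 1. Their summed level did not fall: it was 1084 to 1487 CPM in null and 977 to 1253 CPM in intact libraries, which overlap. Lrrtm3, a postsynaptic organiser that binds neurexins, was at 0.0349, 0.370, 0.333 and 0.397 CPM in null and 13.9, 11.6, 11.8 and 10 CPM in intact libraries. The null level was near 0 in all 4 libraries (-5.39 ± 0.34, edgeR adjusted p = 5e-08). Its relative Lrrtm4 had 1 count over the null libraries, 0.514% of the intact level (95% interval 0.0129 to 2.91%). The neurexin gene Nrxn3 had 0 counts in all null libraries and 5.09, 2.27, 1.70 and 1.85 CPM in the intact ones, at least 94.1-fold lower. Complexins, which clamp and trigger vesicle fusion, moved in opposite directions: Cplx1 fell by 1.61 ± 0.21 (edgeR adjusted p = 3.4e-05), and Cplx2 rose from 72.2, 69.7, 78.9 and 71.0 CPM to 220, 190, 201 and 259 CPM (1.58 ± 0.17, edgeR adjusted p = 7.6e-06). Of 34 voltage-gated and inward rectifier channel genes, 7 rose and 9 fell, with a median of 0.06, close to that of all genes.

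Axon guidance genes code for cues and receptors that steer growing axons and migrating cells. Of 41 tested, 16 fell and 3 rose, with a median of -0.29, and 16 and 5 did so without intact replicate 1. The lower genes included receptors and ligands. The netrin receptor gene Dcc was at 5.02, 2.77, 4.04 and 2.49 CPM in null and 50, 36.4, 37.4 and 38.2 CPM in intact libraries (-3.49 ± 0.22, edgeR adjusted p = 5e-08). Its relative Unc5c was at 0.0698, 0.247, 0.0832 and 0.0850 CPM against 7.95, 3.90, 4.14 and 2.84 CPM (-5.40 ± 0.43, edgeR adjusted p = 4.5e-07). Neither gene overlapped between groups. The Slit receptor gene Robo1 fell by 3.81 ± 0.30 (edgeR adjusted p = 4.4e-07) and Robo2 fell by 3.14 ± 0.33 (edgeR adjusted p = 5.3e-06). The ephrin receptor gene Epha5 fell by 2.24 ± 0.17 (edgeR adjusted p = 3.4e-07). Among the ligands, the ephrin gene Efna2 fell by 1.61 ± 0.13 (edgeR adjusted p = 5.4e-07). The secreted semaphorin gene Sema3d had the lowest log2 fold change of the list, from 2.57, 1.89, 2.35 and 1.58 CPM in intact to 0, 0, 0.0416 and 0.0850 CPM in null libraries (-5.64 ± 0.55, edgeR adjusted p = 2.1e-06), a size that rests on few null counts. The netrin ligand gene Ntn1 moved the opposite way from its receptors, from 90.9, 124, 123 and 116 CPM to 198, 229, 247 and 220 CPM (0.98 ± 0.15, edgeR adjusted p = 0.00018). Sema6a, a membrane semaphorin, rose by 1.11 ± 0.13 (edgeR adjusted p = 1.5e-05).

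Most extracellular matrix genes that were called fell too. Of 42 collagen, laminin and matrix enzyme genes, 22 fell and 6 rose, with a median of -0.94. Their summed level did not fall: it was 3250 to 3872 CPM in null and 3040 to 3901 CPM in intact libraries, which overlap. The counts were 18 and 6 without intact replicate 1, 19 and 3 without null replicate 4 or intact replicate 3, 20 and 3 without intact replicate 2, and 16 and 3 with the close pairs summed. The fibrillar collagen gene Col5a2 was at 3.45, 4.75, 5.91 and 4.14 CPM in null and 67.2, 50.8, 54.9 and 57.7 CPM in intact libraries. The intact libraries were all far above the null ones (-3.66 ± 0.37, edgeR adjusted p = 3.5e-06). Basement membrane genes fell in part: Col4a1 fell by 4.30 ± 0.64 (edgeR adjusted p = 0.00011) and Nid1 fell by 3.49 ± 0.45 (edgeR adjusted p = 2.9e-05), which was -4.11 without null replicate 4. The laminin chain gene Lamc1 rose instead, from 151, 189, 198 and 212 CPM to 404, 373, 378 and 489 CPM (1.13 ± 0.14, edgeR adjusted p = 1.7e-05). Vcan, a large proteoglycan of the embryonic brain, fell from 201, 140, 144 and 157 CPM to 81.8, 71.0, 68.8 and 58.4 CPM (-1.20 ± 0.11, edgeR adjusted p = 2.3e-06). Adamtsl3 had 3 counts over the null libraries, 0.187% of the intact level (95% interval 0.0385 to 0.548%). Collagens are also made by meningeal and endothelial cells. Meningeal markers summed to 5.62 to 7.46 CPM in null and 9.58 to 12.7 CPM in intact libraries, with 3 of 8 tested markers lower, and endothelial markers to 3.21 to 4.29 and 5.04 to 6.93 CPM, with 1 of 6 lower. Their part in the matrix result was not tested.

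Among the growth factor genes, which include those for the EGF and FGF receptors through which neurosphere cultures are driven, 6 of 30 rose and 11 fell, with a median of -0.54, and 7 and 11 did so without intact replicate 1. Fgfr1, an FGF receptor gene, was at 313, 331, 324 and 358 CPM in null and 205, 262, 261 and 267 CPM in intact libraries (0.42 ± 0.10, edgeR adjusted p = 0.00361). Fgfr3 went the other way, from 254, 212, 215 and 176 CPM to 112, 108, 106 and 139 CPM (-0.88 ± 0.11, edgeR adjusted p = 3.2e-05). Both were without overlap between the groups. Egfr was at 572, 515, 516 and 501 CPM against 407, 410, 413 and 461 CPM. Its call (0.32 ± 0.12, edgeR adjusted p = 0.0427) did not hold without each of null and intact replicates 1 to 3 (adjusted p = 0.0656 to 0.108). Nor did the call hold with a replicate block (adjusted p = 0.0568), library-size scaling (adjusted p = 0.114) or the close pairs summed (adjusted p = 0.125). Hbegf, an EGF receptor ligand, rose by 1.15 ± 0.17 (edgeR adjusted p = 9.4e-05). The receptor genes Ntrk3 and Igf1r fell by 0.75 ± 0.13 (edgeR adjusted p = 0.00028) and 0.64 ± 0.11 (edgeR adjusted p = 0.00046). Kit, the stem cell factor receptor, showed the strongest decrease of the list, from 27.4, 12.3, 12.4 and 11.6 CPM to 0.523, 0.432, 0.333 and 0.567 CPM (-5.05 ± 0.34, edgeR adjusted p = 9.5e-08).

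WNT pathway genes were called in both directions, 9 higher and 8 lower of 31, and the same 9 and 8 in number without intact replicate 1. Secreted inhibitors of the sFRP family were lower: Sfrp2 was at 7.68, 8.08, 7.57 and 3.43 CPM in null and 25.8, 28.8, 29.4 and 28.0 CPM in intact libraries (-2.07 ± 0.22, edgeR adjusted p = 5.1e-06). Sfrp1 fell by 2.83 ± 0.52 (edgeR adjusted p = 0.00058). The receptor gene Fzd5 rose by 1.08 ± 0.19 (edgeR adjusted p = 0.00042). Target genes that also restrain the pathway did not share a direction: Axin2 rose by 0.49 ± 0.12 (edgeR adjusted p = 0.00464), Notum rose by 3.51 ± 0.54 (edgeR adjusted p = 0.00012) from under 0.3 CPM, and Nkd1 fell by 0.77 ± 0.21 (edgeR adjusted p = 0.00863) with overlapping groups. Notum was at 4.35 without intact replicate 3. Lgr5, another WNT target, fell by 1.98 ± 0.44 (edgeR adjusted p = 0.00222).

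Of 25 Notch pathway genes, 4 rose and 7 fell, but without intact replicate 1 the counts turned to 8 and 3. The list therefore has no direction that holds for all libraries. Its steadiest member was the ligand gene Jag1, at 121, 113, 117 and 89.2 CPM in null and 50.5, 53.6, 53 and 62.3 CPM in intact libraries (1.0 ± 0.12, edgeR adjusted p = 1.9e-05). The ligand gene Dll4 rose by 1.59 ± 0.36 (edgeR adjusted p = 0.00269), and Dner, which encodes a neuronal Notch ligand, fell by 0.81 ± 0.17 (edgeR adjusted p = 0.00147). Notch1 was at 439, 372, 375 and 327 CPM against 400, 257, 260 and 301 CPM (0.31 ± 0.16, edgeR adjusted p = 0.143) and was called higher without intact replicate 1 (0.47, adjusted p = 0.0231).

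BMP and TGF-beta genes gave 4 higher and 8 lower of 30. The inhibitor gene Id2, which BMPs induce, was at 14.7, 13.3, 12.8 and 8.36 CPM in null and 140, 48.0, 50.9 and 47.7 CPM in intact libraries. Intact replicate 1 was far above the rest, yet all intact libraries exceeded all null ones (-2.55 ± 0.31, edgeR adjusted p = 1.9e-05, and -2.0 without that library). The ligand gene Bmp4 had 0 counts in the null libraries and 10.1, 0.487, 0.599 and 0.135 CPM in the intact ones, so its bound of at least 97.4-fold lower rests on intact replicate 1. Without it the fitted log2 fold change moved from -9.32 to -6.55. The BMP antagonist gene Chrdl1 rose by 1.12 ± 0.16 (edgeR adjusted p = 7.1e-05) and Tgfb1 by 1.38 ± 0.22 (edgeR adjusted p = 0.00017). Of 11 Hedgehog genes 3 rose and 2 fell. The effector gene Gli2 was at 34.5, 26.9, 27.3 and 18.6 CPM in null and 11.0, 7.25, 7.78 and 7.25 CPM in intact libraries (1.69 ± 0.20, edgeR adjusted p = 1.6e-05). The co-receptor gene Gas1 rose by 0.63 ± 0.12 (edgeR adjusted p = 0.00108), and Hhip, a decoy receptor, fell by 3.25 ± 0.44 (edgeR adjusted p = 4.3e-05).

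Neural stem and radial glia genes had few calls: of 25, 3 rose, 4 fell and 18 were not called, with a median of -0.15. Nes, which encodes the progenitor filament nestin, was at 1604, 1520, 1552 and 1720 CPM in null and 955, 1235, 1289 and 1387 CPM in intact libraries (0.39 ± 0.12, edgeR adjusted p = 0.0153). Sox2 was at 359, 391, 406 and 298 CPM against 538, 529, 528 and 491 CPM. The groups did not overlap, and the call was weak (-0.52 ± 0.19, edgeR adjusted p = 0.0407). It was lost when any single library but null replicate 3 was left out (adjusted p = 0.0571 to 0.114). With the close pairs summed it was lost as well (adjusted p = 0.0931). Hopx, a marker of outer radial glia and adult stem cells, fell from 29.1, 22.1, 22.0 and 20.9 CPM to 2.41, 4.01, 2.54 and 2.64 CPM (-3.04 ± 0.40, edgeR adjusted p = 3.9e-05).

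SOX genes, which set progenitor and glial fates, gave 1 higher and 6 lower of 15, and 2 higher and 4 lower without intact replicate 1. Sox5 (Entrez 20678; chromosome 6, 143828425 to 144782287) was at 22.4, 19.9, 21.1 and 24.6 CPM in null and 74.9, 76.0, 80.4 and 72.6 CPM in intact libraries. It had little spread in either group (-1.78 ± 0.10, edgeR adjusted p = 1.7e-08). Sox1, a gene of early neural progenitors, rose by 0.83 ± 0.13 (edgeR adjusted p = 0.00017) and the gliogenic Sox9 fell by 0.56 ± 0.15 (edgeR adjusted p = 0.00681). Of 21 homeobox and paired box genes of brain regions, 6 rose and 8 fell. Pitx3, a gene of midbrain dopamine neurons, was at 6.14, 13.0, 11.6 and 15.4 CPM in null and 0.388, 0.595, 0.138 and 0.315 CPM in intact libraries (5.01 ± 0.43, edgeR adjusted p = 9.2e-07). Irx1 moved by a similar amount in the other direction, from 1.79, 4.76, 4.14 and 1.40 CPM to at most 0.142 CPM (-4.95 ± 0.59, edgeR adjusted p = 1.4e-05). Zic1 fell by 2.48 ± 0.37 (edgeR adjusted p = 0.0001), Otx1 fell by 0.83 ± 0.15 (edgeR adjusted p = 0.0005) and Six4 rose by 1.61 ± 0.27 (edgeR adjusted p = 0.0003). Of 39 genes in the Hox clusters, 38 did not pass the count filter.

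Calls among dorsal forebrain genes depended on single libraries. Of 17 dorsal and glutamatergic genes, 9 fell and 1 rose, with a median of -2.51. Without intact replicate 1 or null replicate 3 only 4 fell, a share near that of all genes, and without each of the other null libraries 5. The list's mean log2 CPM in intact replicate 1 was 2.26, while it was 0.66 to 0.79 in intact replicates 2 to 4 and -0.43 to -0.11 in the null ones. Of 20 ventral and GABAergic genes, 3 rose and 5 fell, 3 and 3 without null replicate 4 and 4 and 3 without intact replicate 1, where the median changed from -1.23 to 0.17. Gad1, which encodes a GABA-synthesising enzyme, rose from 3.49, 1.73, 1.20 and 1.44 CPM to 11.3, 10.6, 8.70 and 21.3 CPM (2.74 ± 0.51, edgeR adjusted p = 0.00071). Gsx1, a ventral progenitor gene, fell by 2.21 ± 0.58 (edgeR adjusted p = 0.00711).

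Most oligodendrocyte progenitor genes fell. Neurosphere cultures can contain cells that have begun this lineage. The part of such cells in the levels given here was not tested. Of 16 tested, 12 fell and 0 rose, with a median of -2.01. The list was highest in intact replicate 1 (mean log2 CPM 6.56), intermediate in intact replicates 2 to 4 (4.74 to 5.34) and lowest in the null libraries (3.20 to 3.83). Without intact replicate 1, 10 fell and 0 rose, with a median of -1.41. Pdgfra, the receptor through which these progenitors divide, was at 29.3, 37.1, 35.9 and 32.9 CPM in null and 277, 112, 115 and 70.6 CPM in intact libraries (-2.09 ± 0.32, edgeR adjusted p = 0.00014). The lineage transcription factor gene Sox10 was at 2.44, 2.10, 2.66 and 2.52 CPM against 107, 31.3, 31.4 and 18.2 CPM (-4.26 ± 0.55, edgeR adjusted p = 3e-05, and -3.46 without intact replicate 1). The proteoglycan gene Cspg4, which marks the same cells, was at 27.0, 25.7, 24.4 and 39.9 CPM against 108, 137, 137 and 143 CPM (-2.16 ± 0.21, edgeR adjusted p = 2.1e-06). All 3 were without overlap, and Cspg4 was lowest, not highest, in intact replicate 1 among the intact libraries. Lhfpl3 fell by 3.11 ± 0.25 (edgeR adjusted p = 4.7e-07).

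Myelin genes, which mature oligodendrocytes use, gave 10 lower and 0 higher of 15, and 7 lower and 1 higher without intact replicate 1. Mbp, a major myelin protein gene, was at 0.698, 0.493, 0.416 and 0.936 CPM in null and 195, 11.5, 13.5 and 3.38 CPM in intact libraries. The size of its decrease rests on intact replicate 1: -6.37 ± 1.22 with it (edgeR adjusted p = 0.00082) and -3.81 without it (adjusted p = 0.0005). Ugt8a, which makes the myelin lipid galactosylceramide, fell by 6.22 ± 0.53 (edgeR adjusted p = 8.7e-07), and by 5.63 without that library. Gpr17, a receptor of oligodendrocytes about to mature, was at 0.768, 1.91, 1.21 and 4.76 CPM in null and 231, 40.6, 44.3 and 11.5 CPM in intact libraries (-5.17 ± 0.86, edgeR adjusted p = 0.00028). It was at -3.82 without intact replicate 1 and -6.05 without null replicate 4.

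Most astrocyte genes that were called rose, but not all. Of 25, 11 rose and 3 fell, with a median of 0.45, and 16 and 3 did so without intact replicate 1. Members ranged from -2.14 to 2.36, and Fgfr3, given above with the growth factor genes, was among those that fell. Slc1a2, the glutamate transporter of mature astrocytes, was at 246, 219, 213 and 305 CPM in null and 64.0, 42.9, 46.3 and 38.1 CPM in intact libraries (2.36 ± 0.23, edgeR adjusted p = 3.2e-06). Sparcl1, a secreted astrocyte protein that promotes synapses, was at 725, 722, 727 and 1258 CPM against 272, 150, 148 and 187 CPM (2.18 ± 0.23, edgeR adjusted p = 5.2e-06). In both, intact replicate 1 was the highest intact library and null replicate 4 the highest null one, and the groups stayed apart. Hepacam, an astrocyte adhesion gene, rose by 2.32 ± 0.33 (edgeR adjusted p = 6.7e-05). Gfap, the classical astrocyte filament, was at 9.49, 7.83, 8.49 and 55.0 CPM in null and 69.1, 2.0, 0.829 and 0.225 CPM in intact libraries. The groups overlapped only through intact replicate 1, and the value went from 0.19 ± 1.12 (edgeR adjusted p = 0.914) to 4.40 (adjusted p = 0.00399) without it. With intact replicate 1 kept and null replicate 4, the highest null library, left out, Gfap was at -1.06 (edgeR adjusted p = 0.53). The water channel gene Aqp4 went from 0.25 ± 0.68 (edgeR adjusted p = 0.8) to 1.92 (adjusted p = 0.00557) without intact replicate 1.

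Pan-neuronal genes were 1 higher and 11 lower of 30 with all libraries, and 5 higher and 6 lower without intact replicate 1. Without null replicate 3 the counts were 1 and 7, and without null replicate 4 they were 0 and 7. The list's mean log2 CPM was 4.49 in intact replicate 1 against 2.99 to 3.10 in the other intact and 2.47 to 2.85 in the null libraries. Dcx, a microtubule protein of migrating young neurons, was at 0.872, 0.000, 0.125 and 1.90 CPM in null and 35.6, 9.31, 9.21 and 5.31 CPM in intact libraries (-4.11 ± 0.79, edgeR adjusted p = 0.00087). It remained lower without intact replicate 1 (-3.19, adjusted p = 0.00239) and was at -5.21 without null replicate 4. Stmn3, another microtubule regulator, fell by 1.82 ± 0.31 (edgeR adjusted p = 0.00033). The tau gene Mapt was at 45.5, 39.3, 38.4 and 57.6 CPM against 70.1, 19, 18.4 and 15.8 CPM, not called with all libraries (0.55 ± 0.53, edgeR adjusted p = 0.439) and called higher without intact replicate 1 (1.35, adjusted p = 0.0388). For the lineage lists, leaving out intact replicate 1 moved the median from -3.11 to -1.35 for myelin, from -2.01 to -1.41 for oligodendrocyte progenitor, from 0.45 to 0.67 for astrocyte and from -0.78 to -0.23 for pan-neuronal genes.

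**Figure D4:**
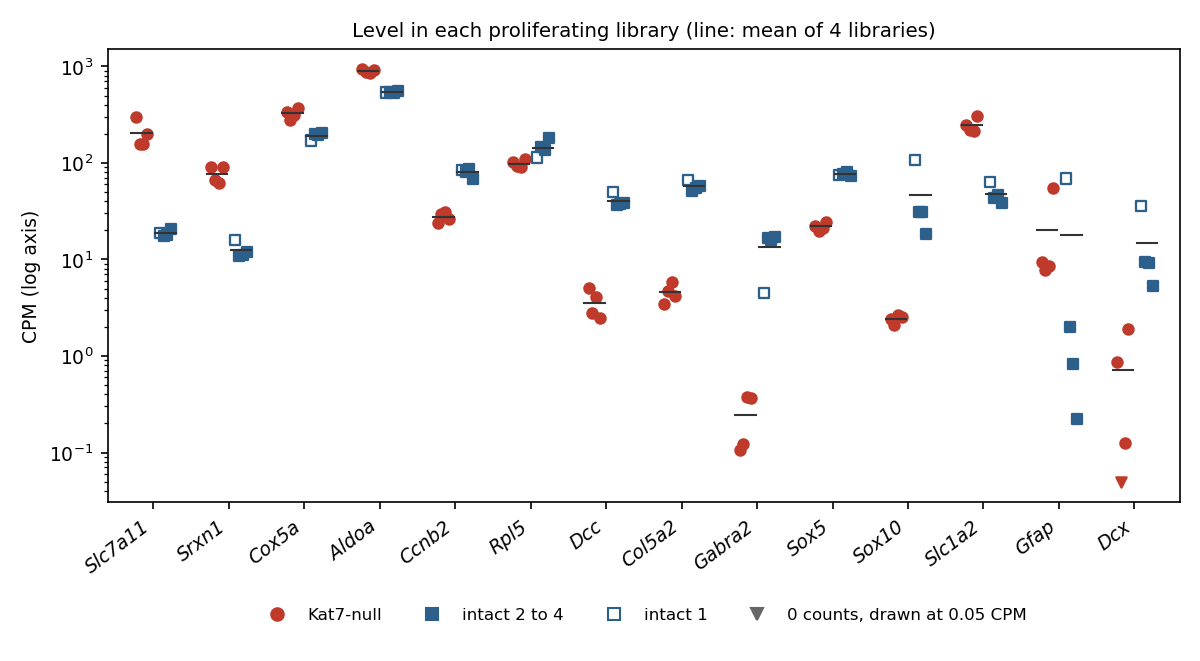
CPM of 14 genes in every proliferating library on a log axis, null and intact side by side, with intact replicate 1 as an open square and libraries without counts as triangles at the bottom. Slc7a11, Srxn1 and Slc1a2 are higher in every null library, Dcc, Col5a2, Sox5 and Sox10 are lower in every null library, and for Gfap intact replicate 1 (69.1 CPM) lies above all null libraries.

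Imprinted genes, expressed from a single parental copy, gave 12 lower and 2 higher of 22, with a median of -1.22, and 10 and 2 without intact replicate 1. The growth-promoting gene Mest, expressed from the paternal copy, was the main exception. It was at 1880, 2073, 2068 and 1930 CPM in null and 693, 988, 973 and 1088 CPM in intact libraries (1.09 ± 0.16, edgeR adjusted p = 9e-05). Peg3, a zinc finger gene, was at 54.0, 49.0, 50.7 and 51.6 CPM against 95.4, 79.9, 80.4 and 83.5 CPM (-0.72 ± 0.08, edgeR adjusted p = 6.6e-06). Both genes were separate between the groups. Grb10, an adaptor that dampens insulin signalling, was at 107, 71.9, 71.3 and 8.93 CPM in null and 262, 260, 262 and 299 CPM in intact libraries. Null replicate 4 was far below the other null libraries (-2.06 ± 0.54, edgeR adjusted p = 0.00716). The sarcoglycan gene Sgce fell by 0.87 ± 0.12 (edgeR adjusted p = 6.4e-05) and the necdin gene Ndn by 1.25 ± 0.23 (edgeR adjusted p = 0.00059), while Impact rose by 0.68 ± 0.13 (edgeR adjusted p = 0.00104).

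Immediate early genes respond to growth signals within minutes. Of 33 such genes and feedback regulators of ERK signalling, 7 rose and 3 fell, with a median of 0.00. Without intact replicate 1 the counts were 5 and 4, and with the proliferating libraries alone and without it 10 and 8. The list therefore has no steady direction. The genes that fell with all libraries were Arc, Ier2 and Nr4a1. Arc was at 11.6, 8.63, 8.78 and 13.9 CPM in null and 30.7, 55.8, 55.9 and 63.3 CPM in intact libraries (-2.26 ± 0.25, edgeR adjusted p = 8.3e-06). Ier2 fell by 0.92 ± 0.10 (edgeR adjusted p = 1e-05) and the nuclear receptor gene Nr4a1 by 1.69 ± 0.22 (edgeR adjusted p = 4e-05). Egr4 rose from 1.74, 3.68, 3.59 and 2.84 CPM to 14.7, 17.6, 18.8 and 25.5 CPM (2.69 ± 0.43, edgeR adjusted p = 0.00021). Of 20 smooth muscle and contractile genes, 6 rose and 4 fell, 7 and 5 without intact replicate 1 and 6 and 1 with the close pairs summed. The myosin light chain gene Myl9 was at 19.5, 17.9, 17.5 and 28.0 CPM in null and 3.63, 2.65, 2.62 and 1.85 CPM in intact libraries (2.95 ± 0.22, edgeR adjusted p = 3e-07), and the actin-binding gene Tagln rose by 1.97 ± 0.37 (edgeR adjusted p = 0.00078). Pericyte markers, which could accompany such genes, summed to 146 to 246 CPM in null and 107 to 184 CPM in intact libraries. Most of that sum was Notch3, which progenitors also express, and their part in the contractile result was not tested. Of 19 classical cadherin and protocadherin genes, 7 rose and 8 fell. Cdh11 fell by 3.44 ± 0.44 (edgeR adjusted p = 2.9e-05), and fell by 2.68 without intact replicate 1.

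Chromatin regulators, sterol synthesis and interferon genes showed few calls. Of 26 Polycomb genes 3 rose and 5 fell, of 20 DNA methylation and deacetylase genes 1 rose and 3 fell, of 22 sterol synthesis genes 4 rose and 2 fell, and of 21 interferon and antigen presentation genes 2 rose and 3 fell. Polycomb counts were 3 and 3 without each of null replicate 1 and intact replicates 2 to 4, 4 and 3 without null replicate 4, and 3 and 2 with the close pairs summed. The DNA methylation and deacetylase genes gave 2 and 1 without null replicate 2 or 4, 2 and 3 without null replicate 3 and 2 and 2 without intact replicate 4. Sterol genes gave 4 and 4 without intact replicate 1 and 4 and 1 without each of null replicate 4 and intact replicates 2 and 3, and interferon genes 2 and 6 without null replicate 4. Over all libraries these shares are at or below those of all genes.

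Across all genes, the largest called changes were taken among those with at least 20 CPM in the higher group, no overlap between groups and the same call without intact replicate 1. The 10 largest increases had little in common by function. Fgl2 (Entrez 14190; chromosome 5, 21372673 to 21378386), a secreted fibrinogen-like protein, was at 55.3, 71.0, 72.1 and 138 CPM in null and 2.62, 2.22, 1.84 and 2.70 CPM in intact libraries (5.16 ± 0.49, edgeR adjusted p = 2.1e-06). Crispld2, a secreted protein gene, was at 45.9, 48.4, 45.6 and 113 CPM against 0.824, 2.60, 2.21 and 1.67 CPM (5.12 ± 0.41, edgeR adjusted p = 5.4e-07). In both, null replicate 4 was clearly the highest library. Acta2, the smooth muscle actin gene, behaved likewise at 33.3, 43.3, 40.2 and 122 CPM against 3.15, 3.30, 3.96 and 2.21 CPM (4.25 ± 0.48, edgeR adjusted p = 9.4e-06), and was at 3.63 without that library. Cybrd1, an iron reductase of the cell membrane, was even across null libraries at 295, 283, 288 and 331 CPM and uneven across intact ones at 32.4, 19.6, 18.6 and 4.14 CPM (4.00 ± 0.46, edgeR adjusted p = 1.2e-05). Aox1, an aldehyde oxidase, rose by 4.03 ± 0.22 (edgeR adjusted p = 2.1e-08).

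Slc7a11, described above, was also among these 10. The others were Fndc3c1 (3.90 ± 0.38), whose reads may be shared with a close paralog, the slow skeletal troponin gene Tnnt1 (3.75 ± 0.35), the matrix gene Vwa1 (3.50 ± 0.34) and the G protein gene Gna14 (3.12 ± 0.34), all with edgeR adjusted p of at most 6.3e-06.

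Besides Kat7, the largest decrease was in Hmcn1 (Entrez 545370; chromosome 1, 150562500 to 150993652), which encodes the large matrix protein hemicentin. It was at 0.174, 0.0617, 0.166 and 0.198 CPM in null and 8.82, 20.2, 20.6 and 41.9 CPM in intact libraries (-7.12 ± 0.51, edgeR adjusted p = 1.5e-07). The intact libraries differed among themselves, with replicate 4 highest, yet all were far above the null ones. Armh4 was at 0.244, 0.000, 0.374 and 0.170 CPM in null and 22.7, 27.5, 28.2 and 21.3 CPM in intact libraries (-6.86 ± 0.35, edgeR adjusted p = 1e-08). The receptor phosphatase gene Ptprd, which organises synapses, was at 0.523, 0.000, 0.374 and 0.227 CPM against 38.8, 28.7, 28.6 and 22.6 CPM (-6.58 ± 0.51, edgeR adjusted p = 3.4e-07). For both, null libraries were near or at 0 and intact libraries even. Dpp6, a potassium channel partner, fell by 5.00 ± 0.35 (edgeR adjusted p = 1.4e-07) and Nynrin by 4.74 ± 0.27 (edgeR adjusted p = 2.3e-08). Enpp2, which makes the lipid signal lysophosphatidic acid, fell by 4.92 ± 0.65 (edgeR adjusted p = 3.7e-05), by 4.07 without intact replicate 1 and by 6.0 without null replicate 4. Kat7, Mbp, Ugt8a and Gpr17, given above, complete the 10.

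The same genotype contrast after differentiation has its own 8 libraries, and the 2 contrasts come from the same fit. It called 3691 genes higher (24.3%) and 3345 lower (22.0%) in null cells. Of the genes higher in proliferating null cells, 1486 were higher after differentiation too, 51.6% of the proliferating and 40.3% of the differentiating calls. Of those lower, 1497 were lower in both, 50.2 and 44.8%. In opposite directions, 239 went from lower to higher and 193 from higher to lower. The genotype effect differed between the states for 3442 genes (22.7%, edgeR adjusted p under 0.05 for the interaction).

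Mitosis genes changed side most clearly: 0 higher and 12 lower of 24 while proliferating, 18 higher and 1 lower after differentiation. The interaction was 1.02 for Kif20a (edgeR adjusted p = 0.00024), 1.15 for Aurkb (0.00096) and 1.47 for Mki67 (0.00052). Ccnb2 was the member that remained lower (-0.81 after differentiation, interaction 0.72, edgeR adjusted p = 0.0478). Oxidative phosphorylation genes were called higher in both states, 33 and 24 of 37. The increase of Cox5a was smaller after differentiation (interaction -0.59, edgeR adjusted p = 0.00335), while that of Atp5o did not differ beyond the threshold (-0.17, adjusted p = 0.168). Receptor genes were mostly lower in both states, 18 and 26 of 34. Grik2 was not called after differentiation, and its effect differed between states (interaction 1.01, edgeR adjusted p = 7.2e-05). The same was true of Gabbr2 (2.02, edgeR adjusted p = 0.00078).

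Other effects also differed between the states. Kit went from -5.05 to 0.07 (interaction 5.12, edgeR adjusted p = 4.5e-06), Nynrin from -4.74 to -0.74 (3.99, edgeR adjusted p = 5.6e-06) and Sox5 from -1.78 to -0.16 (1.62, edgeR adjusted p = 4.5e-06). Gsx1 changed direction, from -2.21 to 3.93 (6.15, edgeR adjusted p = 8.8e-05), and Egfr went from 0.32 to 2.42 (2.10, edgeR adjusted p = 3.9e-06). For Slc7a11, Hmox1 and Slc1a2 the difference between states did not pass the test, with interactions of -0.33, 0.43 and -0.06 (edgeR adjusted p = 0.459, 0.323 and 0.911).

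**Figure D5:**
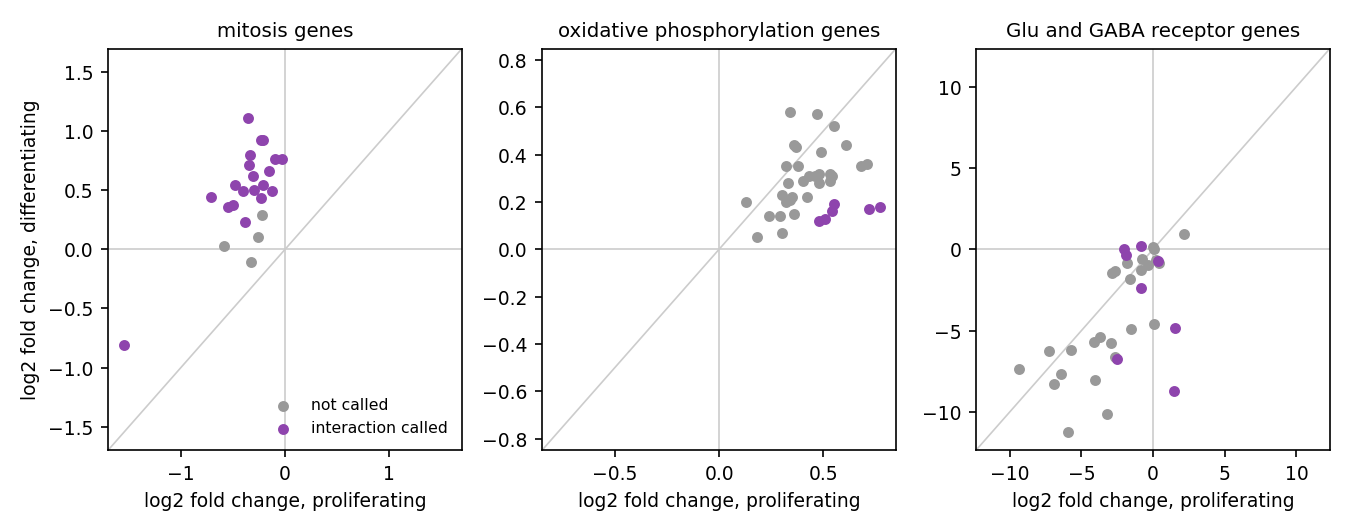
Log2 fold change (null minus intact) in proliferating cells on the horizontal axis and in differentiating cells on the vertical axis, 1 point per tested member of the mitosis, oxidative phosphorylation and glutamate and GABA receptor lists, with purple points where the interaction passed the test. Most mitosis genes lie left of 0 and above 0, oxidative phosphorylation genes lie right of 0 by at most 0.77, and most receptor genes lie in the lower left.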

How the data were processed

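The deposited files hold raw read counts per gene, whole numbers whose total differs from library to library, with gene lengths per the file headers. The submitters' processing notes name bcl2fastq for demultiplexing, featureCounts for counting and mm10 as the genome. The aligner, annotation, strand setting and versions were not given in the sources used, so overlapping and antisense genes may share reads. Of 27179 genes, 25275 identifiers were matched to the RefSeq table of GRCm38.p6.

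The model was edgeR 4.0.16 in R 4.3.3 (quasi-likelihood, TMM scaling, 1 mean for each of 4 groups, all 16 libraries, common biological coefficient of variation 0.200), after a filter at a minimum count of 10 that kept 15177 genes. Adjusted p-values are Benjamini-Hochberg values over all of them, called under 0.05. SEs are the unshrunken coefficient over the square root of F. Intervals cover counting error at 95%, with a floor of 3 counts. Totals of 16.8 to 37.1 M counts put 1 count at well under 0.1 CPM. DESeq2 1.42.0, other scalings, filters and library sets were alternatives, and the script was tested on simulated counts. Same-numbered null and intact libraries did not deviate together (r -0.106 to 0.0590), so numbers were not taken as pairs.

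Named genes were Kat7, the 10 largest changes in each direction under the conditions given with them, up to 6 called genes per list with the lowest adjusted p, and further list members with their values. The contrast, the 44 gene lists and 8 marker lists were chosen with earlier results of these data known. 1158 of 1159 listed names were matched. Some genes that this rule names are not reported here.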

Additional observations from a re-analysis of the deposited data

Results flagged for a closer look

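Among the 161 genes named above, the 4 libraries of each group were screened for a sample far from the other 3, which chance does for about 1 in 20 groups of independent libraries with equal spread. Replicates 2 and 3 lay closer together than other pairs, so that rate is no baseline here. Such a sample was found in 60 of 322 groups (18.6%), by intact replicate 1 in 21 as the highest and 13 as the lowest library and by null replicate 4 in 12 and 3. Whether RNA quality, culture or another property of these libraries moved with them was not tested beyond the values given with the library totals.

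Intact replicate 1 was the highest intact library, in CPM beside the range of the other 3, for Ing4 at 64.5 (42.9 to 46.3), Mbp at 195 (3.38 to 13.5), Ugt8a at 48.0 (12.6 to 18.2), Gpr17 at 231 (11.5 to 44.3), Enpp2 at 75.2 (13.1 to 20.8), Dcc at 50 (36.4 to 38.2), Grm4 at 1.26 (0.920 to 0.967) and Nrxn3 at 5.09 (1.70 to 2.27). It was also highest for Kit at 27.4 (11.6 to 12.4), Id2 at 140 (47.7 to 50.9), Bmp4 at 10.1 (0.135 to 0.599), Gli2 at 11.0 (7.25 to 7.78), Sox10 at 107 (18.2 to 31.4), Hopx at 29.1 (20.9 to 22.1) and Gfap at 69.1 (0.225 to 2.0). The same held for Aqp4 at 60.3 (3.78 to 7.55), Dcx at 35.6 (5.31 to 9.31), Stmn3 at 66.7 (33.8 to 39.1), Mapt at 70.1 (15.8 to 19), Cdh11 at 47.8 (11.8 to 13.5) and Lhfpl3 at 129 (80.2 to 82.8). Intact replicate 1 was the lowest intact library for Jade3 at 12.9 (15 to 15.4), Tnnt1 at 3.49 (6.26 to 6.59), Nqo1 at 8.29 (11.6 to 11.9), Atp5b at 1895 (2192 to 2223), Adm at 11.2 (21.4 to 23.3), Aurkb at 109 (133 to 136), Adamtsl3 at 8.33 (17.0 to 18.5) and Gabra2 at 4.51 (16 to 17.3). It was lowest as well for Hbegf at 25.5 (33.5 to 35.0), Igf1r at 57.8 (70.7 to 71.3), Fgfr1 at 205 (261 to 267), Fzd5 at 13.4 (16.7 to 17.3) and Axin2 at 29.2 (42.6 to 43.8). Null replicate 4 was the highest null library for Crispld2 at 113 (45.6 to 48.4), Acta2 at 122 (33.3 to 43.3), Vwa1 at 55.5 (22.3 to 24.7), Enpp2 at 2.32 (0.349 to 0.678), Pkm at 1965 (1514 to 1550), Adm at 86.6 (52.8 to 58.0) and Eda2r at 171 (128 to 135). It was highest, too, for Zic1 at 3.60 (2.08 to 2.16), Sparcl1 at 1258 (722 to 727), Gfap at 55.0 (7.83 to 9.49), Aqp4 at 44.0 (14.9 to 18.5) and Cspg4 at 39.9 (24.4 to 27.0). Null replicate 4 was the lowest null library for Cdk6 at 12 (20.6 to 21.4), Sfrp2 at 3.43 (7.57 to 8.08) and Dner at 85.2 (105 to 109). Null replicate 1 was the highest null library for Fndc3c1 at 306 (255 to 258), Aldh1l2 at 228 (125 to 140), Slc7a5 at 748 (512 to 535), Lrrtm4 at 0.0349 (0 to 0) and Igf1r at 47.8 (41.3 to 42.4). Null replicate 2 was the highest null library for Unc5c at 0.247 (0.0698 to 0.0850), Grik1 at 0.123 (0 to 0) and Hopx at 4.01 (2.41 to 2.64). Intact replicate 4 was the highest intact library for Mki67 at 696 (555 to 578), Egfr at 461 (407 to 413) and Grb10 at 299 (260 to 262).

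For 74 of the 161 genes the genotype effect differed between the states (interaction, differentiating minus proliferating, edgeR adjusted p under 0.05), 50 in the positive and 24 in the negative direction. Each is given with its log2 difference and its edgeR adjusted p, largest first. The largest positive differences were in Nrxn3 (7.64, 0.00148), Gsx1 (6.15, 8.8e-05), Adamtsl3 (6.0, 2.2e-04), Kit (5.12, 4.5e-06), Irx1 (4.12, 0.00112), Nynrin (3.99, 5.6e-06), Adm (3.85, 1.3e-04), Enpp2 (3.52, 0.00594) and Nkd1 (3.41, 9.8e-06). Next came Lgr5 (3.11, 0.00199) and Lrrtm3 (3.08, 2.1e-04). Positive differences of middle size were in Unc5c (2.77, 0.00235), Armh4 (2.46, 0.00128), Lhfpl3 (2.46, 1.8e-04), Eda2r (2.42, 2.2e-04), Ddit4l (2.12, 1.9e-05), Egfr (2.10, 3.9e-06), Cspg4 (2.08, 2.1e-04), Ptprd (2.03, 0.0381) and Gabbr2 (2.02, 7.8e-04). Next came Col5a2 (1.99, 0.00879), Cdkn1a (1.92, 0.00478), Cdkn1c (1.80, 0.0121), Fgfr3 (1.72, 1.4e-05), Dpp6 (1.69, 0.0114), Sox5 (1.62, 4.5e-06), Dcc (1.59, 0.00115), Grm3 (1.57, 0.00845) and Ntrk3 (1.48, 8.1e-05). Next came Mki67 (1.47, 5.2e-04) and Robo1 (1.42, 0.0154). Further positive differences were in Mest (1.36, 7.4e-04), Sox9 (1.31, 5.7e-04), Pdgfra (1.3, 0.0441), Cdk6 (1.17, 0.0127), Aurkb (1.15, 9.6e-04), Cplx1 (1.14, 0.0107), Kif20a (1.02, 2.4e-04) and Grik2 (1.01, 7.2e-05). The smallest positive differences were in Nqo1 (0.99, 0.0465), Nusap1 (0.91, 0.00115), Sesn1 (0.88, 6.4e-04), Bub1b (0.87, 0.00124), Peg3 (0.85, 1.6e-04), Sgce (0.79, 0.00414), Gas1 (0.76, 0.00684), Ccnb2 (0.72, 0.0478) and Ing4 (0.57, 0.0123). Next came Fgfr1 (0.43, 0.0363) and Rb1 (0.28, 0.0197). The most negative differences were in Pitx3 (-4.03, 0.00237), Vwa1 (-3.33, 2.3e-04), Tnnt1 (-3.0, 0.0011), Egr4 (-2.90, 0.00809), Fgl2 (-2.85, 0.00591), Hhip (-2.37, 0.0142), Crispld2 (-2.34, 0.00684) and Sema6a (-1.97, 1.4e-05). Further negative differences were in Tagln (-1.80, 0.0376), Myl9 (-1.77, 8.3e-04), Asns (-1.64, 0.00675), Jade2 (-1.17, 0.0149), Slc7a5 (-1.03, 0.00309), Cplx2 (-1.02, 0.00709), Srxn1 (-0.98, 0.016) and Lamc1 (-0.98, 0.00231). The smallest negative differences were in Taldo1 (-0.89, 5.0e-04), Hbegf (-0.76, 0.033), Atf4 (-0.70, 0.0313), Cox5a (-0.59, 0.00335), Gclc (-0.48, 0.0123), Pkm (-0.46, 0.016), Uqcrc2 (-0.38, 0.00549) and Sdhb (-0.36, 0.00878).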

How the results depend on the processing

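Results were recomputed under 16 planned settings and 1 chosen after seeing the data, replicates 2 and 3 of each proliferating group summed. The total of called genes was 5864 as reported and 4493 to 6637 over the settings, 5013 to 6254 when each library was left out in turn. Scaling by library size gave 2234 higher and 3847 lower, and DESeq2 2947 and 3373 (with 14 genes without an adjusted p). With the replicate number as a block, 2753 genes were higher and 2887 lower. Same-numbered libraries did not deviate together, so the block is not a pairing, and it ended the call of Egfr (adjusted p = 0.0568) and of no other named gene. Of 160 named genes besides Kat7, 150 were called and 145 of these kept their call and direction in every setting in which they were tested. The 5 others were Jade3, Kat2b, Atf4, Egfr and Sox2. Kat2b was lost, among others, with library-size scaling (adjusted p = 0.135). No named gene changed direction while called. Counts of list members called moved by more than 1.5 times in 104 of 850 recomputations. The fits of the proliferating libraries alone give no value for the differentiating contrast. Depth limits the genes with under 1 CPM in either group, where single counts set the fold.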

Other observations

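The median number of CpG in the 300-base RefSeq promoter was 21 for genes higher in null cells, 19 for genes lower and 21 for genes not called. Promoters with more than 15 CpG made up 69.4% of higher, 63.8% of lower and 67.8% of uncalled genes that had one in the table. The same groups had a median level of 5.17, 4.09 and 4.52 log2 CPM, and the difference in CpG was not tested.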
